A study of Homo sapiens with 6 samples.

Results

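ATC2 is 1 of 4 doxorubicin-tolerant clones of K562, a human line from a chronic myeloid leukaemia, and it is set here against the other 3 clones, ATC1, ATC3 and ATC4. The clone was chosen by its name in the sample labels and not by its values. Its members are the genes that stood outside the range of the other clones. Of 34796 genes in the table of the clones, 13452 had at least 50 counts in 1 or more of the 4 clones, and these are called measured. A gene was counted as above the range when its level in ATC2 was at least 2-fold higher than in the highest of the other clones, and as below it when at least 2-fold lower than in the lowest. Levels are CPM, a gene's counts scaled to a common library size by TMM, and gaps between libraries are differences in log2 CPM with a prior count of 2 added. By this rule 416 measured genes were above the range (3.09%) and 150 were below it (1.12%), which makes 566 in all.

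The series has 6 samples: untreated parental K562 cells, parental cells given doxorubicin for 48 h, which are not analysed here, and the 4 clones. The parental cells carry the genotype label WT and the clones are labelled anthracycline-tolerant. The clones came from 480 wells seeded with 10000 cells each, treated first with 100 ng/ml and then with 225 ng/ml doxorubicin. Living cells were found in 21 wells after 4 weeks, and cells from 4 wells were kept growing in 225 ng/ml. A well received many cells, so the labels do not say that a clone descends from 1 cell. Each clone is 1 library of 1 culture, and the spread within a clone was not measured. Parental_1, the library of untreated cells in the same table (its label also carries the time 48 h), received no drug, so clone and parental levels differ in drug exposure at harvest as well as in descent.

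The drug, an anthracycline, holds topoisomerase II on cut DNA and so leaves strand breaks. ABCB1, also called P-glycoprotein or MDR1, is a membrane pump that uses ATP to move anthracyclines and many other compounds out of the cell. K562 cells carry the BCR-ABL1 fusion and resemble early erythroid cells: they make fetal and embryonic globins and can be pushed towards erythroid or megakaryocytic traits.

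Library totals were 18420238 counts for ATC2, between 19169282 and 21361758 for the other clones, and 20895918 for Parental_1. Mitochondrial genes took 5.07% of the counts of ATC2, 6.05% to 9.63% of those of the other clones and 5.07% of those of Parental_1. All 6 markers of K562 identity given here (GATA1, TAL1, KLF1, HBG1, HBG2 and TFRC) were present in ATC2, with a summed level of 2404 CPM against 3035 to 3442 CPM in the other clones and 3772 CPM in Parental_1. Lymphoid markers summed to 459 CPM in ATC2 and 168 to 390 CPM in the others, and nearly all of this was PTPRC at 456 CPM, while MS4A1 was at 0 and CD3E had 14 counts. Monocyte and granulocyte markers summed to 43.1 CPM (38.9 to 55.2 CPM in the others), with MPO at 0 and ELANE at 1 count. Epithelial markers summed to 514 CPM (425 to 746 CPM), fibroblast markers to 57.8 CPM (16.3 to 64.5 CPM) and endothelial markers to 13.2 CPM (0.247 to 16.1 CPM). The part of these markers in the results was not tested.

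Among the 4 clones, ATC2 had the most genes above the range of the other 3, and ATC1 alone had fewer below. The same rule gave 130 genes above and 129 below for ATC1, 86 and 342 for ATC3, and 331 and 530 for ATC4. At a margin of 4-fold, ATC2 had 124 genes above and 14 below, and ATC4 had 104 and 187. With no margin, ATC2 held the highest level for 3397 measured genes (25.3%) and the lowest for 3865 (28.7%), and counts of highest or lowest genes in a list are read beside these shares. Its genes outside the range by 2-fold or more thus lay mostly above it, while the count of lowest ranks was the larger one.

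**Figure D1:**
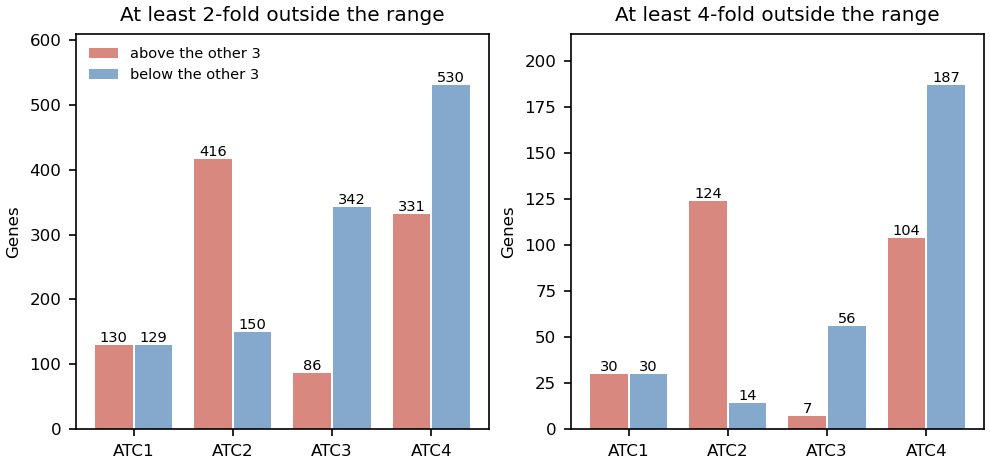
Number of genes (vertical axis, from 0) that lay at least 2-fold (left) or 4-fold (right) above (red) or below (blue) the range of the other 3 clones, for each clone in turn among 13452 measured genes. ATC2 has 416 above and 150 below at 2-fold, and 124 and 14 at 4-fold.

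The test across all genes called none of these differences. With edgeR's quasi-likelihood test and Benjamini-Hochberg adjustment, 0 of 18024 genes (0%) passed 0.05 in either direction, and the smallest adjusted p was 0.0895, for MYH15. At an unadjusted p under 0.05 there were 674 genes higher in ATC2 and 390 lower. DESeq2 called 91 higher and 38 lower, limma-voom called 0 and 0, and edgeR without ATC4 called 190 and 28. Of the DESeq2 calls, 91 of 91 and 35 of 38 were also outside the range by 2-fold. The spread in these fits comes from the other 3 clones alone, so ATC2 is assumed to vary as they do. For a single gene, 1 library against 3 cannot give an exact permutation p below 0.25 (one-sided). Higher and lower are therefore used below as statements about these libraries.

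The route by which genes passed the filter differed between the sides. Of the 416 genes above the range, 229 (55.0%) had 50 counts in another clone as well, and 187 passed through ATC2 only, so that these had to be high in it. All 150 genes below the range passed through the other clones. Next to the margin, IFFO2 lay just inside with a log2 gap of 0.9985 to the nearest clone and UBXN10 just outside with 1.0012, and on the lower side TTC38 (-0.995) was inside and ACOT7 (-1.005) outside. The count above grew to 663 when ATC3 was left out of the range, and the count below grew to 254 without ATC1 and 351 without ATC3. A range over fewer clones is narrower by construction.

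ABCB1 was the first of the 3 genes given with the clone (GRCh38 chromosome 7, 87503633 to 87713323, minus strand). ABCB1 had 43531 counts in ATC2, 10198 in ATC1, 7770 in ATC3 and 15339 in ATC4, against 52 in Parental_1. Every clone was far above the parental library, and ATC2 was the highest of the 4. Its level was 2180 CPM against 537 ± 195 CPM in the other clones (SD, n = 3), a 4.06-fold difference, and 2.87-fold above ATC4, the nearest. Against Parental_1 the log2 ratio was 9.58 in ATC2, 7.32 in ATC1, 7.12 in ATC3 and 8.06 in ATC4. The edgeR adjusted p for ATC2 against the others was 0.581, and over 8 alternatives it ran from 0.00672 to 1, under 0.05 with DESeq2 and without ATC4.

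MYCT1, a target of MYC expressed in blood stem cells and endothelium (chromosome 6, 152697895 to 152724567), had 639 counts in ATC2, 42 in ATC1, 174 in ATC3 and 0 in ATC4, where a count of 0 allows up to 3 counts. Parental_1 had 2. ATC2 was the highest clone, but the other 3 spread from nothing to a level that ATC2 exceeded 3.58-fold. The mean of the other clones was 3.58 ± 4.67 CPM (SD, n = 3) and ATC2 was at 32.0 CPM. The edgeR adjusted p was 0.890 (0.0207 to 1 over 8 alternatives, the lowest without ATC4).

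SCN9A, which encodes the voltage-gated sodium channel Nav1.7 (chromosome 2, 166195185 to 166376001), followed a different order. It had 613 counts in ATC2, 114 in ATC1, 0 in ATC3 and 213 in ATC4, and 448 in Parental_1. ATC2 and the parental library were thus close, at 30.7 and 23.7 CPM, and the other 3 clones lay below both, at 5.21 ± 5.27 CPM (SD, n = 3). The adjusted p from edgeR was 0.896, with 0.044 to 1 over the alternatives. SCN4A, the skeletal muscle sodium channel, was also above the range, at 19.9 CPM in ATC2 and 2.06 to 4.84 CPM in the other clones. Of 13 sodium channel genes listed, 4 were measured, and these 2 were above, beside 3.09% of all measured genes.

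Of the 12 genes furthest above the range, 10 are described, and these were low or at 0 in the other clones. Apart from IL2RB, which had 52 counts in ATC3, they passed the count filter through ATC2 only. Their low counts in the other clones thus follow from the filter and the ranking. ZPLD1 had 280 counts in ATC2 and 1, 0 and 0 in ATC1, ATC3 and ATC4, and CAP2, an actin-binding protein, had 176 against 0, 2 and 0. MUC19, a gel-forming mucin, had 1914 counts in ATC2 and 47, 18 and 20 in the others, and MYH15, a myosin heavy chain, had 1148 against 21, 25 and 22. Both stood far above every other clone, and Parental_1, with 89 and 6 counts, was also far below ATC2. MYH15 stood at 57.5 CPM against 1.10 ± 0.17 CPM (SD, n = 3), with an edgeR adjusted p of 0.0895 that ran from 2.65e-26 (DESeq2) to 0.496 over the alternatives. For MUC19 the levels were 95.9 CPM and 1.34 ± 0.66 CPM, with an adjusted p of 0.161 (2.71e-22 to 0.496).

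Genes of signalling proteins and receptors were among the same 10. IL2RB, the beta chain of the receptors for interleukins 2 and 15, had 969 counts in ATC2 and 22, 52 and 9 in ATC1, ATC3 and ATC4. NRP1, a co-receptor for VEGF and semaphorins, had 768 against 45, 20 and 4. ATC2 stood apart from the other clones for both, and Parental_1 had 48 and 2 counts, which is within the range of the other clones for IL2RB and below it for NRP1. In Parental_2, IL2RB was at 4.09 CPM, above the other clones and far below ATC2. The remaining members were THSD4 (201 counts in ATC2, at most 5 in another clone), SPINK1, a trypsin inhibitor (189 and 6), TDO2, which breaks down tryptophan (97 and 3), and OPN5, an opsin (150 and 6). In these 4 genes the gap rests on few counts in the other clones, and with a prior count of 2 its log2 size lay between 4.26 and 4.84.

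The 12 genes furthest below the range were expressed in the other clones and often low in Parental_1. MLLT3, a reader of histone acylation and a frequent fusion partner of KMT2A, had 1 count in ATC2 and 631, 66 and 630 in ATC1, ATC3 and ATC4. Parental_1 also had 1, so ATC2 was at the parental level. CDCA7L, a MYC-interacting nuclear protein, had 8 counts in ATC2 against 251, 411 and 252, and here Parental_1, with 87, lay between. EMILIN2, an extracellular matrix glycoprotein, had 34 against 517, 233 and 949, and CAV1, the coat protein of caveolae, had 20 against 388, 140 and 125. Parental_1 had 14 and 11 counts of these and was below ATC2. PIR, an iron-binding nuclear protein, was at 6.96 CPM in ATC2 and 6.29 CPM in Parental_1, against 35.9 ± 6.45 CPM in the others (SD, n = 3).

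ODZ1, now named TENM1, a teneurin of the cell surface, showed another order. It had 164 counts in ATC2 against 878, 1091 and 1412 in the other clones and 980 in Parental_1, so that ATC2 alone was low. LINGO1, a leucine-rich repeat receptor component, was at 0.40 CPM in ATC2, at 5.77 ± 4.05 CPM in the other clones (SD, n = 3) and highest in Parental_1 at 13.5 CPM, while Parental_2, at 7.94 CPM, was within the range of the other clones. CRYAB, a small heat shock protein, had 23 counts against 115, 103 and 322, and SH2D1A, an adaptor of lymphocyte receptors, had 3 against 52, 23 and 19. The remaining 3 were zinc finger genes of chromosome 19 (ZNF85, ZNF724P and ZNF826P), described with their neighbours. Among these 12 genes edgeR's adjusted p ran from 0.393 (CDCA7L) to 0.786.

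**Figure D2:**
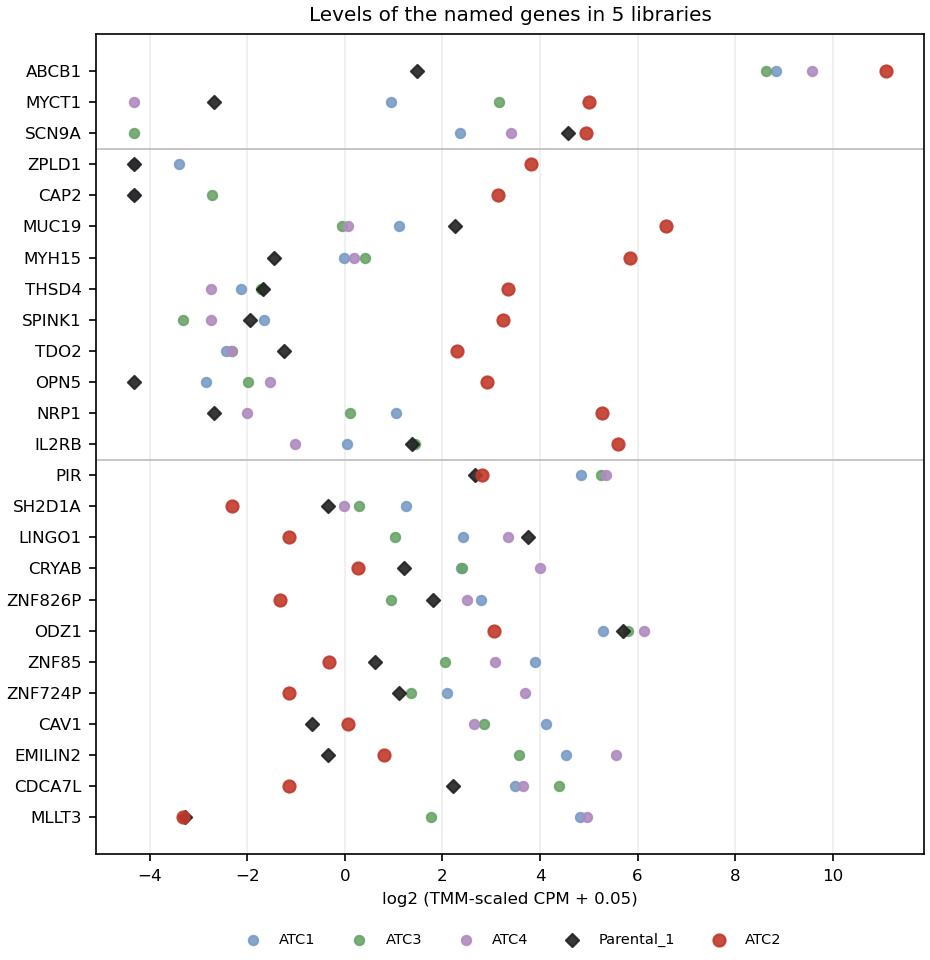
Level (horizontal axis, log2 of TMM-scaled CPM plus 0.05) of ABCB1, MYCT1 and SCN9A, 10 of the 12 genes furthest above and the 12 furthest below the range in the 4 clones (circles, ATC2 in red) and Parental_1 (black diamonds). ATC2 is the rightmost clone in the upper 2 blocks and the leftmost in the lowest one, and Parental_1 lies beside ATC2 for SCN9A, MLLT3 and PIR.

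Parental_1 lay on the side of the other clones for most genes above the range. For 386 of the 416 (92.8%) it was nearer the nearest other clone than ATC2. It was below all 3 other clones for 224 genes (53.8%), within their range for 122, between that range and ATC2 for 56, and at or above ATC2 for 14. In a count added after the data were seen, of the 229 genes above with 50 counts in another clone too, Parental_1 was nearer the other clones for 214 (93.4%). Among the genes below the range, all of which passed the filter through other clones, Parental_1 was nearer the other clones for 108 of 150 (72%) and nearer ATC2 for 42 (28%). It was above all 3 other clones for 38 genes, within their range for 44, between for 49, and at or below ATC2 for 19. Within 2-fold of ATC2 were 38 of the genes above and 41 of the genes below. The 2 sides were not tested against each other. These genes were chosen because ATC2 stood apart from the other clones, which by itself favours a further library lying nearer those. Among genes above, a Parental_1 level below all clones always counts as nearer the other clones. No such share was counted for the genes of ATC1, ATC3 or ATC4, so the shares have no baseline here. Parental_2, the library of the same parental sample in the other table, differed from Parental_1. Its level is given for some of the genes named here, with all 6 libraries scaled together. Where it is not given, the 2 parental libraries may still place a gene differently. ULBP1, for example, was at 4.22 CPM in Parental_1 and 18.2 CPM in Parental_2, past ATC2 at 12.8 CPM. SCN4A was at 1.58 and 14.0 CPM in the 2 parental libraries, and VLDLR had 6 and 83 counts.

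Examples from the genes above the range show Parental_1 past ATC2 and Parental_1 below all clones. SPARC, a collagen-binding matrix protein, had 1242 counts in Parental_1 and stood at 44.2 CPM in ATC2 against 6.58 ± 2.42 CPM in the other clones (SD, n = 3), so Parental_1, at 65.7 CPM, was past ATC2. MECOM, a zinc finger regulator of blood stem cells, was also highest in Parental_1 at 53.9 CPM, with 12.8 CPM in ATC2 and 2.83 ± 1.39 CPM in the others. COL1A2, a chain of type I collagen, was at 0.48 CPM in Parental_1, 45.8 CPM in ATC2 and 6.34 ± 2.41 CPM in the others, so Parental_1 was below all clones. COL1A2 starts 6.89 Mb after ABCB1 on chromosome 7, and is the 1 gene above the range from 5 to 10 Mb after it. Over the other clones, ATC3 was nearest ATC2 for 172 genes above the range, ATC1 for 151 and ATC4 for 93, and ATC4 was farthest for 220.

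**Figure D3:**
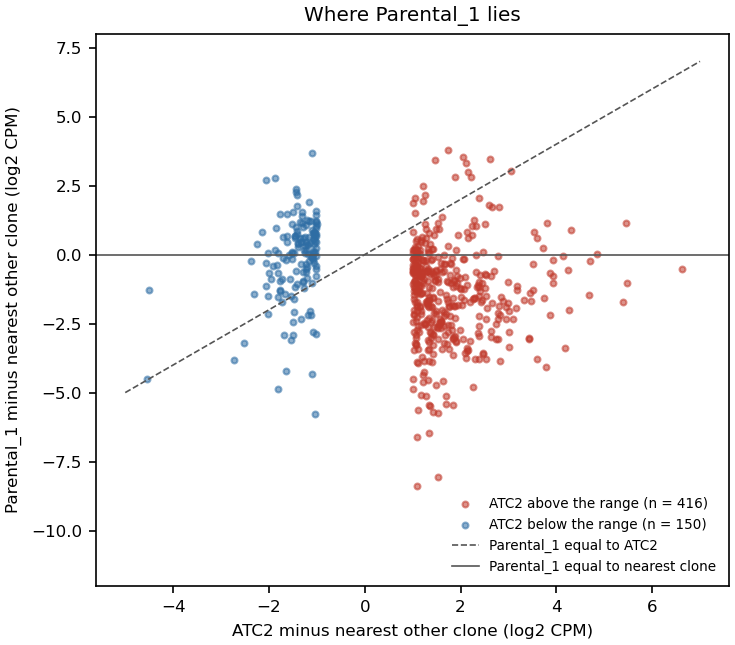
Each point is 1 of the 566 genes outside the range: horizontally the level in ATC2 minus that in the nearest other clone, vertically the level in Parental_1 minus that in the nearest other clone (both log2 CPM). Points near the solid line have Parental_1 at the level of the nearest clone and points near the dashed line have it at the level of ATC2. Most of the 416 red points lie under the solid line and far from the dashed one, while the 150 blue points spread around both.

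The genes that neighbour ABCB1 were high together in ATC2. Of 19 genes listed around ABCB1 on 7q21, 16 were measured, ATC2 had the highest level of 15 and 7 were above the range (beside 3.09% of all measured genes: ABCB1, DMTF1, C7orf23, CROT, TP53TG1, C7orf63 and CLDN12). The median of ATC2 minus the mean of the other clones was 2.13 on the log2 scale, beside -0.01 over all measured genes. DMTF1, a MYB-like transcription factor, had 13012 counts in ATC2, 3505 in ATC1, 2739 in ATC3, 5876 in ATC4 and 2062 in Parental_1. CROT, which moves medium-chain acyl groups out of peroxisomes, had 967, 97, 97, 387 and 158 in the same order, and CLDN12, a claudin, had 4077, 648, 591, 2051 and 351. ATC4 was the nearest clone for all 3, and ATC1 and ATC3 lay close to each other. Against Parental_1 the median of the 16 genes was 2.62 in ATC2, 1.74 in ATC4, 0.46 in ATC1 and 0.25 in ATC3. ABCB4, the phospholipid pump beside ABCB1, had 336 counts in ATC2 and 67, 35 and 181 in the others, short of 2-fold above the nearest. CDK14 was the exception among the 16, with 55 counts in ATC2 and 267 in ATC4. The use of strand in counting is not stated in these sources, and reads of overlapping genes such as ABCB1 and RUNDC3B may be shared.

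With distance from ABCB1 the pattern changed. Positions are compared by start coordinate, the lower end of a gene on the chromosome. Within 2 Mb before the start of ABCB1, ATC2 was highest for 9 of 9 genes (5 above the range) and within 2 Mb after it for 7 of 7 (2 above). The 7 include ABCB1 itself, and the second gene above is HNRNPA1P9, a pseudogene inside ABCB1 that may share its reads. From 2 to 5 Mb after, ATC2 was highest for 4 of 15, and ATC4 had the larger median against Parental_1, 1.77 beside 1.12 in ATC2. ATC4 led likewise in the 3 genes from 2 to 5 Mb before, with 5.16 beside 3.66, and in the 20 genes from 5 to 10 Mb after, with 2.17 beside 1.39. From 5 to 10 Mb before, ATC2 was highest for 5 of 7 genes, with a median of 0.44 against Parental_1. From 10 to 20 Mb before the start ATC2 was highest for 33 of 51 genes, with 4 above the range and a median of 0.41 against the other clones. From 10 to 20 Mb after it, ATC2 was highest for 92 of 111 genes, with 15 above the range and a median of 0.86. Over all measured genes ATC2 was highest for 25.3% and above the range for 3.09%. In that last stretch the median against Parental_1 was 0.72 in ATC2, and -0.07, 0.13 and -0.33 in ATC1, ATC3 and ATC4. PIK3CG, the gamma catalytic subunit of PI3-kinase, had 6694 counts in ATC2 and 2112, 1436 and 1954 in the others. NAMPT, the rate-limiting enzyme of NAD salvage, had 4351 against 1504, 1679 and 1516. Beyond 20 Mb the medians lay between -0.21 and 0.04. Chromosome 7 in all held 41 of 673 measured genes above the range (6.09%). DNA copy number was not measured here, so number of gene copies and transcription per copy cannot be told apart.

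**Figure D4:**
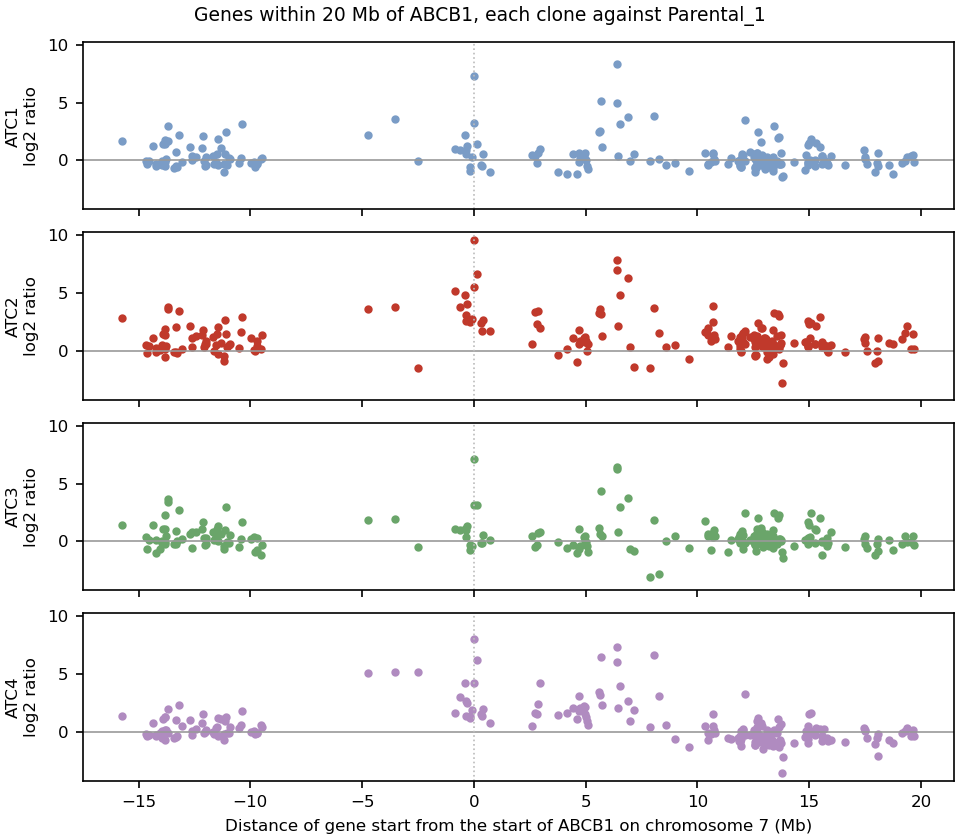
Log2 ratio to Parental_1 (vertical axes, 1 panel per clone) of measured genes on chromosome 7 by the distance of their start coordinate from that of ABCB1 (horizontal axis, Mb). ATC2 has medians above 0 in every stretch drawn, the highest 3.66 at 2 to 5 Mb before and the lowest 0.44 at 5 to 10 Mb before. ATC4 exceeds it at 2 to 5 Mb on both sides and at 5 to 10 Mb after, and has a median of -0.33 at 10 to 20 Mb after, where ATC2 has 0.72.

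Genes of cholesterol and fatty acid synthesis were low in ATC2. Cells make cholesterol from acetyl-CoA through mevalonate and squalene, and most genes of the route are driven by SREBP2. Of 25 genes of cholesterol synthesis and uptake, all measured, ATC2 had the lowest level of 19 and the highest of 1 (SQLE). Below the range were 3 (MVK, IDI1 and DHCR7), beside 1.12% of all measured genes. The median difference from the other clones was -0.71. DHCR7, the last enzyme of the route to cholesterol, had 864 counts in ATC2 against 3643, 2604 and 3102 in ATC1, ATC3 and ATC4 and 4006 in Parental_1. MVK, mevalonate kinase, had 191 against 514, 396 and 415, and 569 in Parental_1. IDI1, an isomerase of the isoprenoid units, had 711 against 1699, 1440 and 1544, and 2402 in Parental_1. The other clones were close together and below Parental_1 in all 3, and ATC2 was lower again. In Parental_2 DHCR7 was at 141 CPM, which is within the range of the other clones, and ATC2 was below both parental libraries for all 3 genes. The median against Parental_1 was -1.30 in ATC2 and between -0.70 and -0.60 in the others.

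For fatty acid synthesis, 12 of 13 listed genes were measured and ATC2 was lowest for 8. FASN alone was below the range, beside 1.12% of all measured genes. FASN, fatty acid synthase, had 9184 counts in ATC2 against 21305, 18306 and 18901, a level of 460 CPM beside 940 ± 10.5 CPM (SD, n = 3). SCD, which desaturates acyl chains, and ACACA, which makes malonyl-CoA, were lowest in ATC2 short of the margin, at 212 and 80.0 CPM. The list's median was -0.83 against the other clones. The edgeR adjusted p was 0.463 for DHCR7, 0.786 for MVK and 0.779 for FASN, with a range from 0.000194 (DESeq2) to 1 for DHCR7.

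Protein-folding genes split by compartment. Of 16 heat shock genes measured, mostly cytosolic and mitochondrial chaperones, ATC2 was lowest for 11 and highest for 0. Below the range were 3 of the 16, beside 1.12% of all measured genes. HSPA8, the constitutive HSP70, had 12808 counts in ATC2 against 39443, 36999 and 37948, and 50408 in Parental_1. In Parental_2 it was at 1070 CPM, between ATC2 and the other clones. HSP90AA1 had 10056 against 24358, 22415 and 23032, and 47336 in Parental_1. HSPE1, the mitochondrial co-chaperonin, had 724 against 1652, 1816 and 1876. The other clones lay within a narrow band for each and ATC2 stood apart from it, at 641 CPM beside 1842 ± 68.8 CPM for HSPA8 (SD, n = 3, edgeR adjusted p 0.663, 0.000584 to 1 over alternatives). HSP90AB1 did not follow, since ATC1 was lowest with 30730 counts. The near-identical pair HSPA1A and HSPA1B, which can trade reads, was inside the margin.

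In the endoplasmic reticulum the order was reversed. Of 19 chaperone and quality-control genes, ATC2 was highest for 14 and lowest for 1 (CALR). Above the range were 2 of the 19, beside 3.09% of all measured genes. DNAJB9, a co-chaperone of BiP, had 1959 counts in ATC2 against 678, 649 and 628, and 243 in Parental_1. SEL1L, part of the ubiquitin ligase that clears misfolded proteins, had 4610 against 1865, 1706 and 2124, and 1173 in Parental_1. Parental_2, at 189 CPM, was above the other clones and below ATC2, at 227 CPM. The level of DNAJB9 was 98.1 CPM beside 31.5 ± 1.43 CPM (SD, n = 3), with an edgeR adjusted p of 0.401 (0.00133 to 1). ERN1, the sensor IRE1, was at 57.2 CPM against 19.4 to 30.8 CPM, short of the margin. The median difference of the list was 0.45, beside -0.53 for the heat shock list.

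Promoters of 4 of these genes are shown because the lists contain a shared box: DNAJB9 and SEL1L stood above the range and DHCR7 and MVK below it. They are RefSeq sequences of GRCh38.p14, 250 bases before and 50 after the annotated start, read 5′ to 3′ along the gene. Capitals mark CCAAT on either strand (CCAAT or ATTGG) and, in MVK, one match to GGGNNTTCC, which resembles NF-kB sites and reads GGAAAACCC on this strand.
DNAJB9: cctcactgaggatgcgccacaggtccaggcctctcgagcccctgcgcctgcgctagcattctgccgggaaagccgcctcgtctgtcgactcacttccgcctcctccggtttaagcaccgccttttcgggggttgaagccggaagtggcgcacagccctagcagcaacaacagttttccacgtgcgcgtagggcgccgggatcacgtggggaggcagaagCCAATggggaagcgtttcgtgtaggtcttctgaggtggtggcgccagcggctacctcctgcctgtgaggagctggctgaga
SEL1L: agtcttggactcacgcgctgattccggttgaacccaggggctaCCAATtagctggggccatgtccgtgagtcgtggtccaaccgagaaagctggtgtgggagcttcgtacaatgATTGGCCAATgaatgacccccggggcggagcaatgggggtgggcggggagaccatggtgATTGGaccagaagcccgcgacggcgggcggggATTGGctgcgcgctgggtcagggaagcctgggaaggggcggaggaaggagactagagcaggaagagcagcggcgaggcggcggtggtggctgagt
DHCR7: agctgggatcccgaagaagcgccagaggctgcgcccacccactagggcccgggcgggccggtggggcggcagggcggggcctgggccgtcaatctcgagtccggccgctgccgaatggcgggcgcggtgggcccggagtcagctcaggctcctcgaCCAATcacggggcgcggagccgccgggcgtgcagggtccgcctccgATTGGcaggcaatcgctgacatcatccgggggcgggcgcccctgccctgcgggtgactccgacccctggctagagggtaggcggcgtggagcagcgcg
MVK: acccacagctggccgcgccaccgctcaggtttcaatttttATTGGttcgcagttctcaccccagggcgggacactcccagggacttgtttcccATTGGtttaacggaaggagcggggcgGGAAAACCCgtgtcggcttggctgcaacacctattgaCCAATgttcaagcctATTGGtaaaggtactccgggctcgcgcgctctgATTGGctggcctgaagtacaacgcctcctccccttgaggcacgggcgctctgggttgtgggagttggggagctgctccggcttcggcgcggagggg
They lie at chr7:108569624-108569923 (plus strand), chr14:81533804-81534103 (minus strand), chr11:71448344-71448643 (minus strand) and chr12:109573544-109573843 (plus strand). CCAAT was found 1 time in DNAJB9, 5 times in SEL1L, 2 times in DHCR7 and 5 times in MVK. It was in 17 of 18 matched promoters of the endoplasmic reticulum list and in 15 of 18 of the cholesterol list, against 34.6% of all 35116 promoters. The box was thus common in a list that was high in ATC2 and in one that was low. Among the heat shock promoters 6 of 15 had it. The core CACCCCAC of a sterol response element was in 1 of 18 cholesterol promoters and 2.79% of all, GGGNNTTCC in 7 of 18 of the NF-kB list and 6.58% of all, and GATAA, searched for erythroid genes, in 8 of 12 of the erythroid regulators and 22.7% of all. These are matches of letters and say nothing of binding.

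Genes of the integrated stress response, the ATF4 route that answers amino acid shortage and misfolding, were high in ATC2 for part of the list. Of 21 measured, 12 were highest in ATC2, beside 25.3% of all measured genes, and 1 was above the range (VLDLR, 62 counts against 13, 4 and 15). That is near the 3.09% of all genes, and VLDLR passed the count filter through ATC2 only. TRIB3, a pseudokinase target of ATF4, had 10944 counts in ATC2, 3031 in ATC1, 5912 in ATC3 and 2313 in ATC4, and DDIT3, or CHOP, had 2293, 797, 1630 and 857. ATC3 came next among the clones in both. The list's median against Parental_1 was 0.52 in ATC2, 0.30 in ATC3, 0.07 in ATC4 and -0.30 in ATC1. The 2 parental libraries differed for TRIB3, at 133 CPM in Parental_1 and 491 CPM in Parental_2, beside 538 CPM in ATC2. ATF4 itself was highest in ATC3, and ALDH1L2 was low in ATC2 and ATC3 alike, with 148 and 124 counts against 1053 and 1277.

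Globin genes and mitochondrial transcripts were low in ATC2 beside the other clones. Of 17 globin and heme synthesis genes measured, ATC2 was lowest for 15 and highest for 0. Below the range were 4 (HBA1, HBA2, HBE1 and HBD), beside 1.12% of all measured genes. HBE1, the embryonic beta-type globin, had 29620 counts in ATC2, 79401 in ATC1, 133414 in ATC3 and 76659 in ATC4, and 29203 in Parental_1. ATC2 was thus close to Parental_1, 1483 beside 1544 CPM, and the other clones were above both (4714 ± 1810 CPM, SD, n = 3). Parental_2 was lower, at 759 CPM. HBD, the minor adult globin, had 102 counts against 495, 277 and 1459, and Parental_1, with 432, was with the other clones. Parental_2, with 42 counts and 3.51 CPM, was instead below ATC2, so the 2 parental libraries place HBD on opposite sides. HBA1 and HBA2 are near-identical and their counts are uncertain one by one. ALAS2, the erythroid entry enzyme of heme synthesis, had 1461 counts in ATC2, 2029 in ATC1, and 6205 and 6379 in ATC3 and ATC4. All 12 measured mitochondrially encoded genes were lowest in ATC2 among the clones, none by 2-fold, with a median difference of -0.60. Against Parental_1 their median was -0.39 in ATC2, 0.12 in ATC1, 0.65 in ATC3 and 0.06 in ATC4. As a share of all counts, mitochondrial genes took 5.07% in both ATC2 and Parental_1. MT-CO3, a subunit of cytochrome oxidase, was at 3989 CPM against 5902 to 11599 CPM. Of 36 nuclear genes of the respiratory chain 30 were lowest in ATC2, with a median of -0.41 and none outside the margin. In bulk RNA, fewer cells of a kind and less RNA per cell cannot be told apart.

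Megakaryocyte and platelet genes were high in both ATC2 and ATC3. Of 21 measured, ATC2 was highest for 10 and lowest for 0. SELP and FLI1 were above the range, beside 3.09% of all measured genes. SELP, P-selectin of platelet granules, had 1393 counts in ATC2, 260 in ATC1, 645 in ATC3, 15 in ATC4 and 0 in Parental_1. FLI1, an ETS regulator of megakaryocytes, had 630, 254, 288, 7 and 1 in that order, and ITGA2B, the platelet integrin alpha chain, had 19329, 6529, 13373, 3757 and 615. ATC4 was the lowest clone for all 3. PPBP and PF4, platelet chemokines, were higher in ATC3 (1229 and 79 counts) than in ATC2 (919 and 57), and ATC4 and Parental_1 had none. The list's median against Parental_1 was 3.11 in ATC2, 4.39 in ATC3, 2.45 in ATC1 and 1.18 in ATC4.

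NF-kB and inflammatory genes were also high in ATC2 and ATC3, while interferon-response genes had another order. The median of the NF-kB list against Parental_1 was 1.52 in ATC2, 1.23 in ATC3, 0.51 in ATC1 and 0.27 in ATC4. For the interferon list it was 1.80 in ATC1, 1.59 in ATC2, 1.33 in ATC4 and 1.01 in ATC3. Of 21 NF-kB and inflammatory genes measured, ATC2 was highest for 11 and lowest for 1. RELB and IL1B were above the range, beside 3.09% of all measured genes, and IL1B passed the count filter through ATC2 only. RELB, an NF-kB subunit, had 429 counts in ATC2 and 146, 126 and 50 in the others. CXCL3, a neutrophil chemokine, had 465 against 88, 290 and 63, while IL8 was highest in ATC3 with 849 counts and had 441 in ATC2. Of 24 interferon-response genes, 13 were highest and 3 lowest in ATC2. MX2, GBP1 and GBP3 were above the range, beside the same 3.09%, and GBP1 passed the count filter through ATC2 only. GBP3, a guanylate-binding protein, had 522 against 170, 209 and 22, and 4 in Parental_1, whereas GBP5, its relative, was highest in ATC1 with 5999 counts and had 3173 in ATC2.

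Proliferation genes were low in ATC2 without passing the margin. ATC2 was lowest for 21 of 28 DNA replication genes, 16 of 24 genes of G2 and mitosis and 16 of 30 DNA repair genes, and highest for 0 in each. Over all measured genes it was lowest for 28.7% and highest for 25.3%. The medians of the 3 lists against the other clones were -0.51, -0.40 and -0.27. Against Parental_1 the replication genes had a median of -1.11 in ATC2 and -0.67, -0.40 and -0.60 in ATC1, ATC3 and ATC4.

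**Figure D5:**
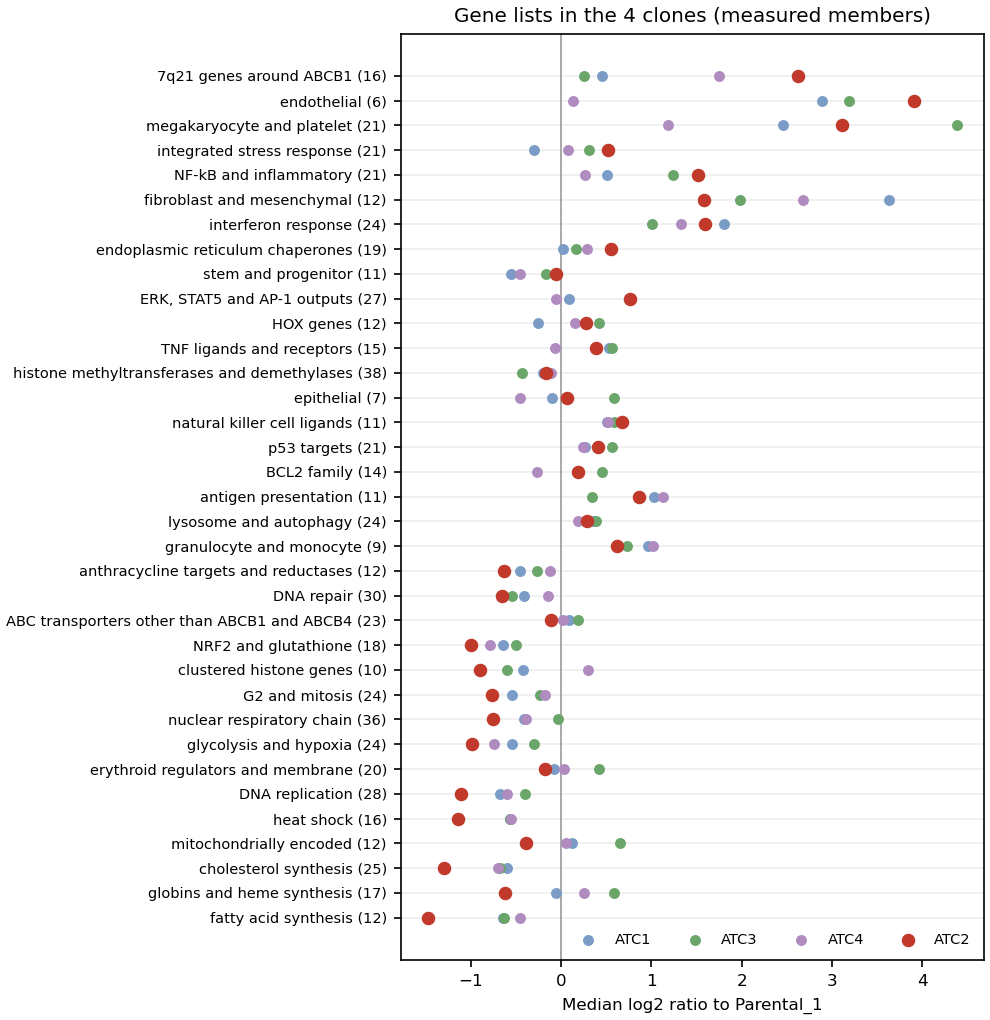
Median log2 ratio to Parental_1 of the measured members of each gene list with 5 or more (number in brackets), for the 4 clones (ATC2 in red), ordered by the difference between ATC2 and the other clones. ATC2 is the rightmost clone for the 7q21 list (2.62) and the leftmost for cholesterol (-1.30), fatty acid (-1.48) and heat shock (-1.14) genes.

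The other lists held 0 to 3 genes above the range each, beside 3.09% above and 1.12% below over all measured genes, so that 1 gene of a list of this size is no result about the list. Above it were MECOM, MYCT1 and HMGA2 of 11 stem and progenitor genes, ESAM and MYCT1 of 6 endothelial genes, COL1A2 and SPARC of 12 fibroblast genes (with COL6A1 below), MECOM and KDM6B of 38 histone methyltransferases and demethylases, and IL7R of 4 lymphoid genes. Single genes above were ABCG1 of 23 ABC transporters other than ABCB1 and ABCB4, NDRG1 of 24 glycolysis and hypoxia genes, DUSP4 of 27 outputs of ERK, STAT5 and AP-1, ULBP1 of 11 natural killer cell ligands and TNFRSF14 of 15 TNF ligands and receptors (with TNFRSF21 below). ITGAM, below, was the one such gene among 9 of granulocytes and monocytes. ABCG1, a sterol exporter, had a level of 6.86 CPM in ATC2 against 0.20 to 1.48 CPM. Its list leaned the other way: ATC2 was lowest for 13 of the 23 and highest for 3 (median difference -0.38). So did the glycolysis and hypoxia list, where ATC2 was lowest for 15 of 24 and highest for 3 (median difference -0.41). HMGA2, IL7R, ABCG1 and DUSP4 passed the count filter through ATC2 only, as did IL1B and GBP1. HMGA2, a chromatin protein of fetal cells, had 135 counts against 5, 30 and 36. COL1A2 also belongs to the stretch of chromosome 7 after ABCB1. No gene was outside the range among 12 anthracycline targets and reductases, 20 erythroid regulators and membrane genes, 7 epithelial genes, 11 of antigen presentation, 21 p53 targets, 14 of the BCL2 family, 18 of NRF2 and glutathione, 24 of lysosome and autophagy, 10 clustered histone genes and 12 HOX genes.

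Runs of neighbouring genes stood apart elsewhere too. Among 12738 overlapping runs of 15 adjacent measured genes, the highest median of ATC2 minus the other clones, 2.16, was the run around ABCB1 (chromosome 7, 82754013 to 87832296). In ranking the runs, any that overlapped one already taken was passed over. Next came chromosome X from 136909395 to 149885835 (1.86), chromosome 12 from 62643982 to 65966295, which ends at HMGA2 and its antisense gene (1.44), and chromosome 2 from 68178857 to 69942945 (1.31). The lowest was on chromosome 19 from 20077994 to 21556270, with a median of -1.45. That stretch and the next, to 27793940, hold the zinc finger genes of 19p12, and this region was chosen after its values were seen. Of 26 measured zinc finger genes there, ATC2 was lowest for 15 and highest for 0. For most of the others ATC3 was lowest, as for ZNF738 (7 counts beside 15 in ATC2) and ZNF90 (3 beside 13). Below the range were 8 of the 26, beside 1.12% of all measured genes. ZNF85 had 15 counts in ATC2 against 330, 81 and 170, and 28 in Parental_1, and ZNF714 had 92 against 592 in ATC1 and 241 in ATC3. The median against Parental_1 was -0.97 in ATC2, -0.31 in ATC3, 0.78 in ATC4 and 1.01 in ATC1. These genes are alike in sequence, so reads may have been split between them. Chromosome 19 in all held 12 genes above and 24 below (2.49%) of 963 measured.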

How the data were processed

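RNA was taken with TRIzol and libraries were made with a stranded poly(A) kit, per the labels' protocols. Aligner, counting program and use of strand were not stated in these sources. The deposited table holds whole read counts per gene to which the authors added 1, with pairs of libraries lacking reads given as missing. Here 1 was subtracted and missing values were read as 0. The authors' deposited log2 fold changes were not used. The submitters' processing notes name GRCh38, but few of the table's gene positions are of that build, so positions come from GENCODE 29 by Ensembl ID (32415 of 34796 genes placed). Symbols came from the table for 21205 genes, and 1880 have none.

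Range counts used log2 CPM from edgeR 4.0.16 (TMM, prior count 2, at least 50 counts in 1 or more clones). The test was edgeR's quasi-likelihood fit of ATC2 against the 3 other clones with its own low-count filter and Benjamini-Hochberg adjustment at 0.05 in R 4.3.3. It left 2 residual degrees of freedom, and its p-values measure the spread between single libraries of clones. Alternatives were DESeq2 1.42.0, limma-voom (limma 3.58.1), other scalings, filters, margins and prior counts, Parental_2 in place of Parental_1, and each clone left out. All tests were also run on simulated counts with known changes and the same dispersion for every gene. The spread between these clones differs by gene, so that run does not show how the tests perform here. Named genes were ABCB1, MYCT1 and SCN9A, the 12 furthest above and 12 furthest below the range, and up to 2 each way from each of 37 gene lists, and a few of these are not reported here. Other list members named beside them were chosen after their values were seen. Members, lists and rules were chosen with earlier results of these data known. CPM levels are not corrected for gene length and were compared only within a gene. Limits from a count of 0 cover counting error only. Promoters and motifs were read from RefSeq sequences of GRCh38.p14.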

Additional observations from a re-analysis of the deposited data

How the results depend on the processing

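Depth limits genes with few counts: without the count filter 1209 genes were above the range and 345 below. Margins of 1.5-fold gave 854 and 579, and 4-fold 124 and 14. With each other clone left out in turn the counts ran from 542 to 663 above and from 220 to 351 below, as a range over fewer clones is narrower. Calls went from 0 to 91 higher and 38 lower with DESeq2 and to 9 higher with edgeR on unfiltered genes, and with a clone left out from 0 to 190 higher and from 0 to 28 lower, the upper values without ATC4. Why DESeq2 and the fit without ATC4 called more was not tested. The share of genes with the parental library nearer the other clones was, for genes above the range, 79.4% with Parental_2 and 86.2% to 90.5% with a clone left out. For genes below it the share was 60.1% with Parental_2, 50% at 4-fold, and 60.5% to 73.6% with a clone left out. Other scalings, count minimums and prior counts left both counts within 1.5 times of 416 and 150. Library totals in place of TMM moved the median of all genes from -0.01 to 0.09. List medians changed sign only for antigen presentation, the BCL2 family and histone methyltransferases and demethylases. No paired analysis was possible because ATC2 is 1 library and shares no replicate number with the other clones.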

Other observations

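Genes known from T and natural killer cells were among those highest in ATC2, and this list was put together after the values were seen, so its count is a description. The list had 40 genes, of which 38 were matched and most were not measured. Of 10 measured and given here, 6 were above the range, beside 3.09% of all measured genes. These were PRF1, IL2RB, IL7R, GIMAP2, GIMAP5 and GIMAP6, of which IL7R and GIMAP5 passed the count filter through ATC2 only. SH2D1A, the adaptor of lymphocyte receptors, is not on the list and went the other way, with 3 counts in ATC2 against 52, 23 and 19. PRF1, the pore-forming protein of cytotoxic granules, had 836 counts in ATC2, 30 in ATC1, 66 in ATC3 and 137 in ATC4, and 1430 in Parental_1, so Parental_1 was higher still, while Parental_2, at 22.8 CPM, was below ATC2 at 41.1 CPM. GIMAP6, a GTPase of lymphocytes, had 853 counts against 134, 73 and 60, and 6 in Parental_1. CD3D was inside the range, with 590 counts in ATC2 and 477, 508 and 51 in the others, and IL2RG was highest in ATC3. The T cell marker CD3E had 14 counts in ATC2 and 5, 12 and 14 in the others.

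A pair of further families was also picked after the values were seen. One is the protocadherin gamma cluster, whose variable exons encode neuronal adhesion proteins and share 3′ exons, so that reads may be split between members. Of 18 matched members 5 were measured, all through ATC2 only, so that they had to be high in it. PCDHGB2, for example, had 151 counts in ATC2 against 24, 18 and 22. Of 8 solute carriers of the SLC22 family measured, 2 were above the range, beside 3.09% of all measured genes. SLC22A15 had 1054 counts against 56, 18 and 91, and 67 in Parental_1. SLC22A3, which passed the count filter through ATC2 only, had 59 counts against 2, 2 and 1. SLC22A15 was at 39.2 CPM in Parental_2 and 51.8 CPM in ATC2.

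Of 413 genes above the range with a position, 108 (26.2%) stood next to another one among measured genes, where 5.99% of all 13093 placed genes stand next to one above, in 64 pairs that include SYNE1 and MYCT1, ETS1 and FLI1, TDO2 and GRIA2, and SLC22A3 and LPAL2. Of 149 genes below the range with a position, 13 (8.72%) did, in 7 pairs, where 2.25% of all placed genes stand next to one below. The pairs include genes of the 7q21 and protocadherin gamma stretches and antisense partners, which may share reads. Antisense partners such as TNFRSF14 and its antisense gene cannot be told apart where strand was not used in counting.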
